A study of Mus musculus with 36 samples.

Results

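Fos, Jun, Junb, Egr1, Atf3, Ier2, Ier3, Klf6, Dusp1 and Zfp36, immediate early genes that respond to stress and to tissue dissociation, were followed in macrophages sorted from injured mouse hearts. They were chosen by name, with earlier results of these data known, and all 10 were found among the 12795 genes of the deposited count table. PolyA RNA was sequenced from 36 libraries of flow-sorted cardiac macrophages, split by the surface level of CCR2, a chemokine receptor of monocyte-derived cells, into CCR2pos and CCR2neg cells. In TFEB-TG mice a floxed stop sequence precedes a TFEB transgene (TFEB is a regulator of lysosome genes), and TFEB-wt mice lack that transgene. The groups mac-TFEB (TFEB-TG) and CX3CR1-Cre (TFEB-wt) are called cells with Cre here, and the other groups are labelled Cre-neg. There were 4 libraries in each TFEB-TG group (mac-TFEB and Cre-neg, CCR2pos and CCR2neg) and 5 in each TFEB-wt group (CX3CR1-Cre and Cre-neg, CCR2pos and CCR2neg). A Cx3cr1-er-Cre driver, which responds to tamoxifen, and a Td-Tomato reporter behind a floxed stop are named for the mice of every group, and the labels do not state how Cre-neg cells were separated. All groups shared 7 days of tamoxifen, 90 minutes of cardiac ischemia and collection 7 days afterwards, so no library came from an uninjured heart or from undissociated tissue. A label (TFEB-TG 1 to 4 and TFEB-wt 1 to 5) recurs in 4 libraries each, but nothing says that they came from separate animals, and p-values measure the spread between these libraries, which may be technical.

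Immediate early genes are switched on within minutes of a stimulus by factors already present in the cell, such as serum response factor and CREB, and need no new protein for it. Fos, Jun and Junb encode subunits of the AP-1 transcription factor, Egr1, Atf3 and Klf6 encode other transcription factors, Dusp1 encodes a phosphatase that switches MAP kinases off, and Zfp36 encodes tristetraprolin, which binds AU-rich mRNAs such as that of TNF and promotes their decay. The same genes are known to be induced while tissue is digested into single cells, and in macrophages they also belong to the response to microbial and inflammatory signals. In these bulk libraries, fewer cells of a type and less RNA per cell cannot be told apart.

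Upstream sequence is shown for 3 AP-1 subunits that differed in behaviour: Fos, which was abundant and steady, and Jun and Junb, which varied strongly between libraries. RefSeq's promoter table (GRCm38.p6) matched 8 of the 10 genes, all but Egr1 and Ier2. The 250 bases before the start are printed 5′ to 3′ in the direction of the gene, and capitals mark the letters of a motif found on either strand.
Fos (chr12:85473640-85473889, plus strand): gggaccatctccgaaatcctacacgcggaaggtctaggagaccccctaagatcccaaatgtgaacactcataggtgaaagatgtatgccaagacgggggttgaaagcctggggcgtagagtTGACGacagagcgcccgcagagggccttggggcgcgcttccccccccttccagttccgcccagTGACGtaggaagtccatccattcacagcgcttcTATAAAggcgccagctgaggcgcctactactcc
Jun (chr4:95052223-95052472, minus strand): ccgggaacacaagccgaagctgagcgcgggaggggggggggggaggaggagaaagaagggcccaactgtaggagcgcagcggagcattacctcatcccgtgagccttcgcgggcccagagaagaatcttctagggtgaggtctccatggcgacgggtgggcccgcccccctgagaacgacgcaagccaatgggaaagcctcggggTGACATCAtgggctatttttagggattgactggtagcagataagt
Junb (chr8:84978749-84978998, minus strand): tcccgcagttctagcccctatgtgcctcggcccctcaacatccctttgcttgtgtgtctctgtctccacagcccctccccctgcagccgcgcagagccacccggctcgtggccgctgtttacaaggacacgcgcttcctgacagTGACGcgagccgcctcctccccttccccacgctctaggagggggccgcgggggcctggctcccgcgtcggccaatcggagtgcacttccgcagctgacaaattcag
In Fos the capitals are the core of the cyclic AMP response element, TGACG, starting 129 and 66 bases before the start of the gene, and a TATA box, TATAAA, starting 33 bases before it. Jun held no TGACG but held TGACATCA 45 bases before its start, a match to TGACNTCA, which was added to the search after the promoters had been read. Junb held TGACG 106 bases before its start. Among the 8 promoters 4 held TGACG (Fos, Junb, Atf3 and Dusp1), and 17.8% of all 32851 promoters in the table held it. TGACNTCA, which overlaps TGACG where its N is a G, was in 3 of the 8 (Jun, Klf6 and Dusp1) and in 7.49% of all. The AP-1 site TGANTCA was in 0 of the 8 and in 6.75% of all, TATAAA in 1 (Fos) and in 12.4%, and the EGR site GCGNGGGCG in 1 (Zfp36) and in 4.70%. The CArG box of serum response factor was in 1 of the 8 (Zfp36) and in 1.47% of all. Only these 250 bases were searched, so a motif not found here may lie farther from the start.

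The libraries held 13797484 to 32645783 counts (median 19676040), and the 10 genes took 1.12 to 1.73% of them. All 10 macrophage markers (Cd68, Csf1r, Adgre1, Fcgr1, Mertk, Lyz2, C1qa, Cd14, Ptprc and Itgam) were detected, with a summed level of 28094 to 43092 CPM (counts scaled to a common library size, with TMM normalization) per library. Ccr2 ranged from 302 to 1247 CPM in CCR2pos libraries, against 27.3 to 114 CPM in CCR2neg libraries. The sum of 6 monocyte markers, Ccr2 among them, did not part the fractions as cleanly. It was 432 to 1511 CPM in CCR2pos libraries, but reached 3547 CPM in TFEB-TG and 1087 CPM in TFEB-wt CCR2neg Cre-neg libraries. Cardiomyocyte markers summed to as much as 490 CPM in TFEB-TG CCR2neg Cre-neg libraries, and to at most 85.0 CPM in the other groups. Tfeb averaged 188 ± 127 CPM in CCR2neg mac-TFEB and 7.91 ± 0.920 CPM in CCR2neg CX3CR1-Cre libraries, and 158 ± 111 and 6.54 ± 2.94 CPM in the CCR2pos libraries of these groups (SD, n = 4 and 5). Tfeb was also higher in Cre-neg libraries of TFEB-TG than of TFEB-wt, with 21.1 ± 10.6 CPM in TFEB-TG and 6.65 ± 2.48 CPM in TFEB-wt CCR2neg libraries, and 38.8 ± 15.2 CPM in TFEB-TG and 6.06 ± 0.770 CPM in TFEB-wt CCR2pos libraries (SD, n = 4 and 5). Library 1 of TFEB-TG CCR2neg Cre-neg stood apart most, with a mean correlation of 0.944 with the rest of its group, next to 0.961 for the library after it.

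Per kilobase of exon, the levels of the 10 genes differed widely. The median over 36 libraries was 1789.6 CPM per kilobase for Ier3 (immediate early response 3, a regulator of cell survival), 1724 for Fos and 1012.5 for Zfp36. Atf3 (a stress-induced repressor of the CREB family) had 489.7 CPM per kilobase and Klf6 (a zinc finger factor that promotes macrophage activation) had 472. Levels were lower for Egr1 (a zinc finger factor induced by growth factors and stress) at 129 CPM per kilobase, Dusp1 at 99.9, Junb at 83.9 and Jun at 72.4, and lowest for Ier2 (a small nuclear protein of the immediate early response) at 37.0. The range of Fos over libraries, 1337 to 2139 CPM per kilobase, did not meet that of Jun, 31.1 to 167, or of Junb, 27.5 to 214.

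Positions come from GENCODE vM21 on GRCm38. Fos lies on chromosome 12 (85473890 to 85477273, plus strand), Jun on 4 (95049034 to 95052222, minus), Junb on 8 (84974484 to 84978718, minus), Egr1 on 18 (34859823 to 34864984, plus) and Atf3 on 1 (191170296 to 191218039, minus). Ier2 lies on chromosome 8 (84661331 to 84662852, minus), Ier3 on 17 (35821684 to 35822923, plus), Klf6 on 13 (5861482 to 5870394, plus), Dusp1 on 17 (26505590 to 26562128, minus) and Zfp36 on 7 (28376784 to 28380253, minus). The RefSeq start used for the motif search lies 53656 bases from the gene start given here for Dusp1, 34706 for Atf3 and 1025 for Zfp36. The longest transcript of Jun, of Junb and of Ier2 is a single exon, and those of the other 7 genes have 2 to 4 exons. The libraries were made without strand information, so reads of overlapping genes on the other strand cannot be told apart: exons of Junos overlap Jun, those of Prdx2 overlap Junb, those of Ergic1 overlap Dusp1 and those of Gm44710, which is not in the table, overlap Zfp36. Junos had 0.170 to 2.90 CPM, far under Jun. Prdx2, an antioxidant enzyme, had 109 to 209 CPM and its deviations ran against those of Junb (r = -0.42 over 36 libraries).

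**Figure D1:**
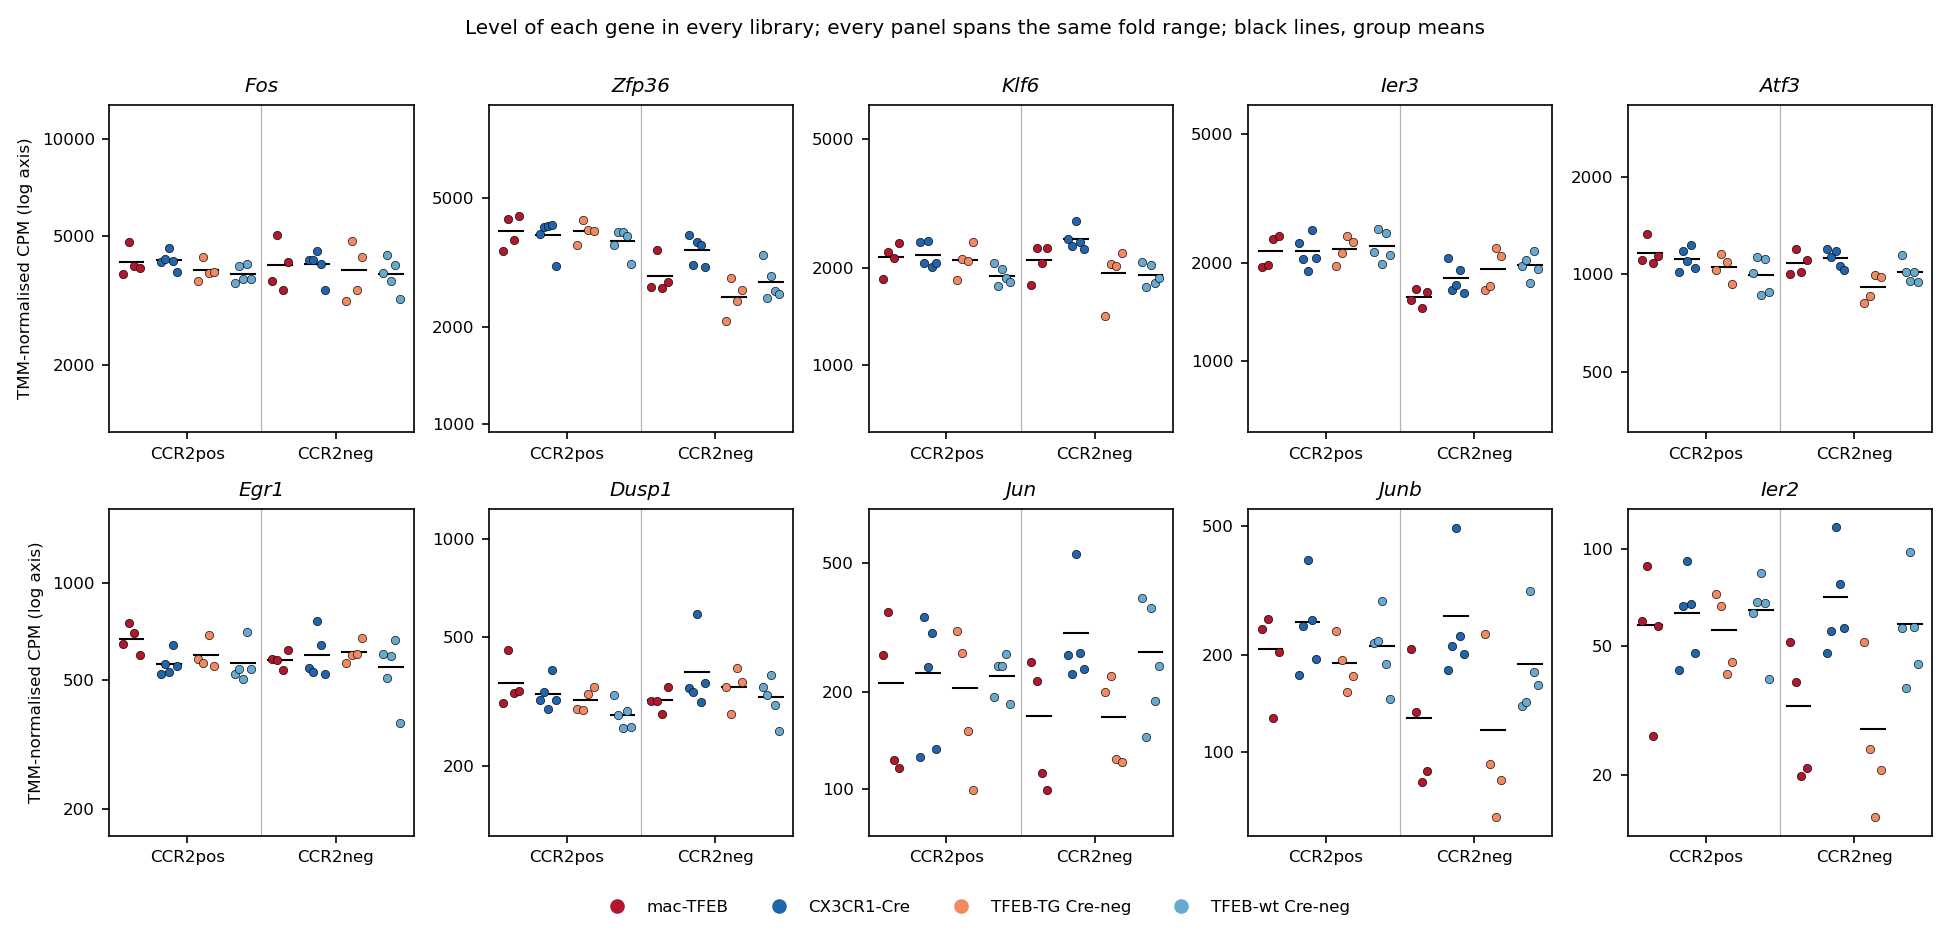
Level of each of the 10 genes in every library, as TMM-normalised CPM on a log axis that spans the same fold range in every panel. Points are libraries (replicates 1 to 4 or 5 from left to right within a group), black lines are group means, and the grey line divides CCR2pos from CCR2neg. Jun, Junb and Ier2 spread over 5.36 to 7.82-fold, and the other 7 genes over 1.60 to 2.30-fold.

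The spread between libraries of a group parted the genes into 3 that varied and 7 that were steady, a division made after the values were seen and given without a test. Jun ranged from 99.1 to 531 CPM, Junb from 63.2 to 493 CPM and Ier2 from 14.9 to 116 CPM, which are folds of 5.36, 7.80 and 7.82 between the highest and lowest library. The SD of their deviations from the group mean was 0.60, 0.52 and 0.55 on the log2 scale, against a median of 0.18, 0.18 and 0.20 for the 500 genes nearest to each in mean level. The other 7 had SDs of 0.13 (Atf3) to 0.21 (Dusp1), beside medians of 0.18 to 0.19 for genes of like level. Fos ranged from 3146 to 5031 CPM, Zfp36 from 2086 to 4401, Klf6 from 1420.4 to 2788, Ier3 from 1457 to 2557, Atf3 from 816 to 1333, Egr1 from 369 to 761 and Dusp1 from 256 to 589. In the order of group means, all neighbours overlapped within their SDs for every one of the 10 genes.

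Deviations from the group means tied Jun, Junb and Ier2 to one another. Over 36 libraries Pearson's r was 0.94 between Junb and Ier2 (Spearman's rho 0.95), 0.76 between Jun and Ier2 (rho 0.76) and 0.65 between Jun and Junb (rho 0.66). The 3 values were 0.96, 0.77 and 0.67 in TFEB-TG libraries, and 0.92, 0.74 and 0.62 in TFEB-wt libraries. Libraries share a label in sets of 4 and are not independent, so no p is given. Fos, the usual partner of Jun in AP-1, was little tied to them over all 36 libraries: its r was 0.20 with Jun, -0.01 with Junb and 0.10 with Ier2. These values were 0.43, 0.27 and 0.44 in CCR2pos libraries, and 0.09, -0.10 and -0.03 in CCR2neg libraries. Among the steady genes r was 0.62 between Fos and Zfp36, 0.61 between Klf6 and Zfp36, 0.59 between Egr1 and Dusp1, 0.56 between Atf3 and Zfp36, and 0.52 between Fos and Atf3. In the same order, r was 0.86, 0.74, 0.47, 0.57 and 0.55 in TFEB-TG libraries. In TFEB-wt libraries it was 0.35, 0.49, 0.63, 0.54 and 0.52. Ier3 ran against the variable genes, with r of -0.40 to Jun, -0.51 to Junb and -0.46 to Ier2. Of the 45 pairs 8 had an r above 0.5 and 8 were below 0, with a median of 0.26.

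**Figure D2:**
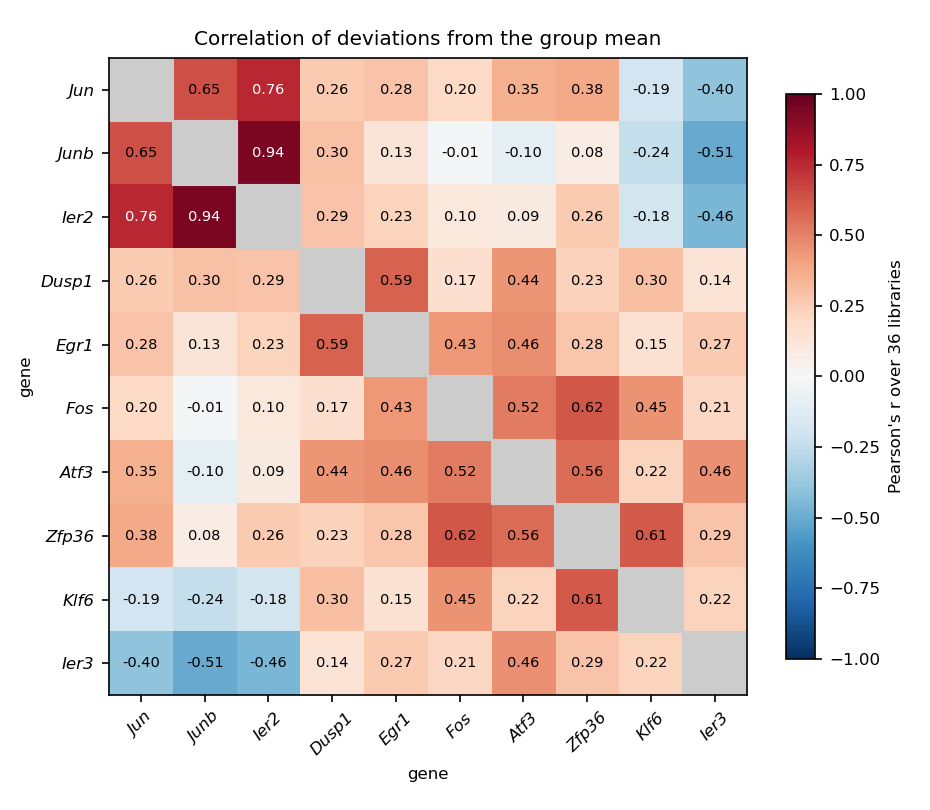
Pearson's r between the 10 genes over 36 libraries, computed on log2(CPM + 1) after subtracting each group's mean; red is positive, blue negative, and the diagonal is left grey. Jun, Junb and Ier2 form a block with r of 0.65 to 0.94, and Ier3 is negative to that block. Zfp36 is tied more loosely to Fos, Klf6 and Atf3 (r of 0.56 to 0.62), while r between Atf3 and Klf6 is 0.22.

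The libraries that share a label moved together. The label accounted for 88.3% of the sum of squared deviations of Klf6, 81.1% of Junb, 77.0% of Ier2, 72.5% of Fos, 70.0% of Zfp36, 63.2% of Jun and 61.5% of Ier3, but only 42.4% of Egr1, 39.3% of Atf3 and 18.0% of Dusp1, beside a median of 44.3% for all genes. In the 4 libraries of TFEB-wt 3, Junb had 293 to 493 CPM and Ier2 84.1 to 116 CPM. In the 4 libraries of TFEB-TG 3, Junb had 63.2 to 153 CPM and Ier2 14.9 to 40.9 CPM. Every library of TFEB-wt 3 thus lay above every library of TFEB-TG 3 in both genes. Klf6 followed other labels: all 4 libraries of TFEB-TG 1 were below their group means, with 1420.4 to 1845 CPM, and all 4 of TFEB-TG 4 above, with 2219 to 2392 CPM. Fos was above the group mean in all 4 libraries of TFEB-TG 2 (4316 to 5031 CPM) and of TFEB-wt 2 (4056 to 4382 CPM).

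**Figure D3:**
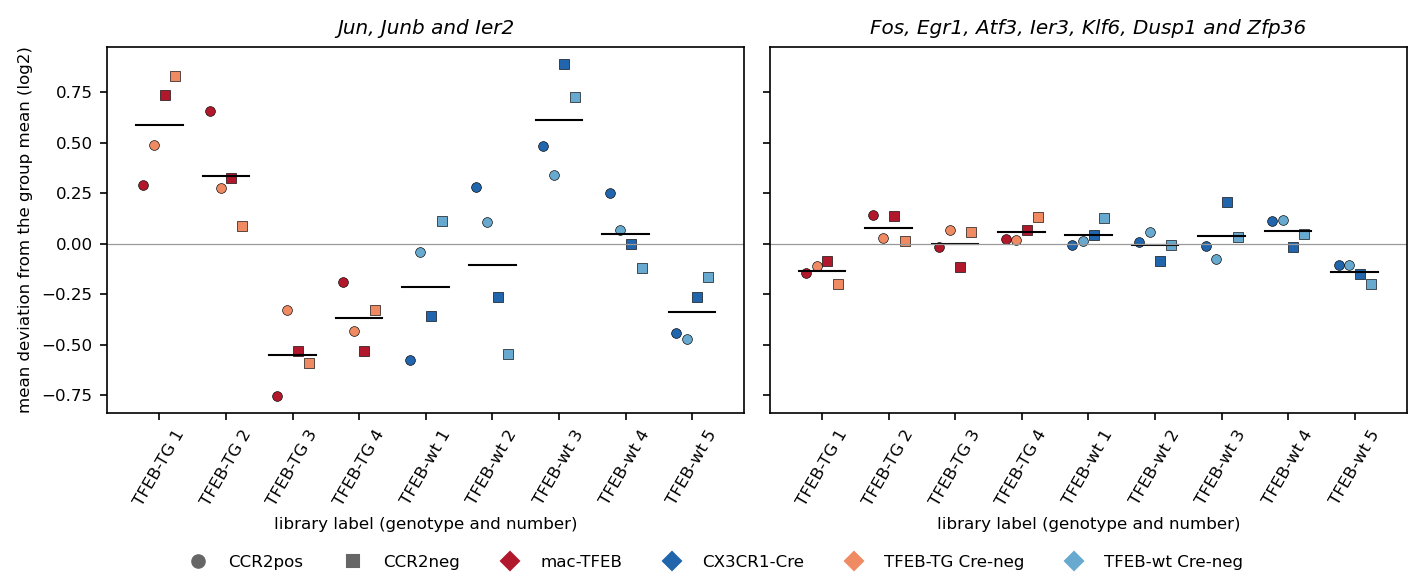
Mean deviation from the group mean, on the log2 scale, for Jun, Junb and Ier2 (left) and for the other 7 genes (right), by library label. Each point is a library (circles CCR2pos, squares CCR2neg, colours the Cre and genotype groups) and each black line the mean of the 4 libraries of a label. TFEB-TG 1 and TFEB-wt 3 are high and TFEB-TG 3 is low in the left panel in all 4 of their libraries, while the right panel runs from -0.20 to 0.21.

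Jun, Junb and Ier2 moved with the base composition of the whole library. The mean GC of the counted genes, weighted by their counts and leaving out the 10 genes, was 48.9 to 50.0% per library. Its deviation from the group mean correlated with the mean deviation of Jun, Junb and Ier2 at r = 0.90 over 36 libraries (rho 0.87), and at r = 0.88 without the 2 libraries farthest from the median in GC. Within TFEB-TG r was 0.90, within TFEB-wt 0.92, within CCR2pos 0.93 and within CCR2neg 0.88. For the mean of the other 7 genes r was -0.10 (rho -0.05). By gene, r with library GC was 0.91 for Junb, 0.88 for Ier2, 0.71 for Jun and 0.35 for Dusp1, and -0.52 for Ier3. Over 7307 genes with a mean of at least 10 CPM and a known GC, the median size of this r, whatever its sign, was 0.32. In 2.11% of them it was above 0.8. The longest transcripts have a GC of 62.6% for Junb, 60.9% for Ier2 and 55.5% for Jun. Among the steady genes it is 57.3% for Egr1, 54.4% for Ier3, 54.1% for Zfp36 and 54.0% for Dusp1. Atf3 has 52.2%, Fos 51.9% and Klf6 42.4%, beside a median of 48.8% for all genes with a mean of at least 10 CPM. Transcript GC thus went only in part with r to library GC. Junb and Ier2 were highest in both, and Klf6, lowest in transcript GC, had an r of -0.35. Egr1 lies above Jun in transcript GC, but its r with library GC was 0.06, and Ier3, at 54.4%, had the lowest r of the 10 genes.

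Among other genes, r with Jun, Junb and Ier2 tended to be higher where transcript GC was higher (rho 0.33). Of 7307 genes with a mean of at least 10 CPM and a known GC, the 1462 with the highest GC (54.4 to 73.7%) had a median r of 0.27 with the mean deviation of Jun, Junb and Ier2, and the 1462 with the lowest (32.8 to 43.3%) one of -0.21. With library GC taken out of the deviations, r between Jun and Junb was -0.02, between Jun and Ier2 0.39 and between Junb and Ier2 0.70, and the SD was 0.42 for Jun, 0.22 for Junb and 0.26 for Ier2. The summed level of the macrophage markers also moved with the variable genes, at r = -0.85, with 7 of the 10 markers negative (Lyz2 -0.82, Cd14 -0.72) and 3 positive (C1qa 0.72, Csf1r 0.62 and Mertk 0.29). Further measures correlated with them at r = 0.54 for the TMM factor (0.939 to 1.10), -0.45 for the number of genes detected (12359 to 12780), 0.57 for the summed level of dendritic cell markers (32.4 to 198 CPM, 6 of 6 measured) and 0.53 for that of T and NK cell markers (0.369 to 74.7 CPM, 6 of 6 measured). The part of these measures in the result was not tested. Fits with library GC as a covariate are given with the comparisons, but library GC comes from the same counts and its range differed between compared groups. In such fits a technical effect of GC and a change of expression that also moves library GC cannot be told apart.

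**Figure D4:**
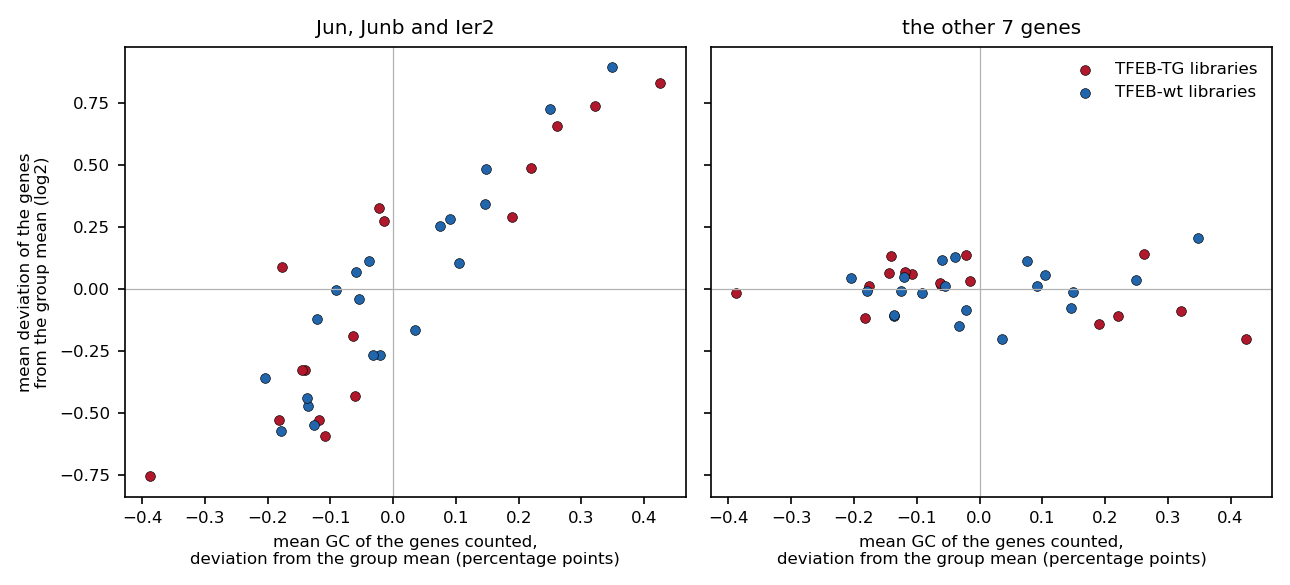
Deviation of a library's mean GC from its group mean (x axis, percentage points) against the mean deviation of Jun, Junb and Ier2 (left) or of the other 7 genes (right), on the log2 scale. Each point is 1 of 36 libraries, coloured by genotype. The left panel rises along a line (r = 0.90) and the right panel is flat (r = -0.10).

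The genes most like single members were named by the highest r of deviations among 7309 genes with a mean of at least 10 CPM. Lyl1, a basic helix-loop-helix factor of blood cells, was the gene most like Ier2 (r = 0.93) and most like Junb (r = 0.89). It lies on the same chromosome (chromosome 8, 84701457 to 84704715, plus strand), 38.6 kb from Ier2 and 269.8 kb from Junb, and its longest transcript has a GC of 62.6%. Rbfa (r = 0.92, GC of 59.4%) was most like Jun. The others were Marcksl1 for Dusp1 (0.85), Tuba1c for Ier3 (0.82), Pltp for Fos (0.81), 1810026B05Rik for Klf6 (0.81), Nfxl1 for Egr1 (0.80), Wsb1 for Zfp36 (0.78) and Gpx3 for Atf3 (0.66). To the 10 genes as a whole, the most alike were Sphk2 (mean r 0.42), Gprc5c (0.42), Rmnd5b (0.41), Klf4 (0.40), Tspan3 (0.40), Mau2 (0.40), Nfkbia (0.40) and Trib1 (0.38).

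The design first asks what the TFEB cassette does in the cells called with Cre, by comparing mac-TFEB with CX3CR1-Cre cells. In CCR2neg cells none of the 10 genes passed the test (edgeR's quasi-likelihood test, adjusted p under 0.05), where 1.38% of all 12795 genes did. Junb had 208, 133, 81.0 and 87.4 CPM in mac-TFEB, against 179, 213, 493, 229 and 201 CPM in CX3CR1-Cre. Ier2 had 51.5, 38.7, 19.9 and 21.0 CPM in mac-TFEB, against 47.6, 55.8, 116, 77.9 and 57.0 CPM in CX3CR1-Cre. In both genes the first mac-TFEB library lay within the range of the CX3CR1-Cre libraries and the other 3 below it. The log2 fold change was -1.05 ± 0.35 for Junb and -1.12 ± 0.36 for Ier2 (standard error, edgeR adjusted p = 0.135 and 0.125). Jun, with 246, 216, 112 and 99.3 CPM in mac-TFEB and 259.7, 227, 531, 263 and 235 CPM in CX3CR1-Cre, had a log2 fold change of -0.85 ± 0.38 (edgeR adjusted p = 0.287), Dusp1 one of -0.29 ± 0.14 (0.339) and Zfp36 one of -0.26 ± 0.11 (0.258). Without CX3CR1-Cre library 3, the highest of its group for Jun, the log2 fold change was -0.55 for Jun and -0.10 for Dusp1 (edgeR adjusted p = 0.634 and 0.845).

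All 10 estimates were below 0 (9 of 10 in limma-voom with quality weights), with a median of -0.24 beside 0.01 over all genes, and 5 of the 10 had an unadjusted p under 0.05. These 10 values rest on the same 9 libraries and are not 10 separate observations. Junb and Ier2 passed in 2 of the other fits: limma-voom with quality weights (adjusted p = 0.00415 and 0.00541, with 10.6% of all genes passing) and limma-voom with the label as a random effect (adjusted p = 0.0218 and 0.0178, with 3.19% of all genes passing). Without mac-TFEB library 1 both also passed (edgeR adjusted p = 0.0406 and 0.0473), but each passed in only 1 of the 9 fits that left out 1 library. Over these fits the log2 fold change was -1.39 to -0.69 for Junb and -1.43 to -0.87 for Ier2 (edgeR adjusted p up to 0.444 and 0.416). Mean library GC was 49.1 to 49.6% in these mac-TFEB libraries and 49.4 to 50.0% in the CX3CR1-Cre libraries. With it as a covariate, a fit chosen after the data were seen, the log2 fold change was -0.20 ± 0.16 for Junb and -0.28 ± 0.19 for Ier2 (edgeR adjusted p = 0.770 and 0.700).

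In CCR2pos cells 0 of the 10 passed between mac-TFEB and CX3CR1-Cre in edgeR, and 0 by DESeq2 and limma-voom, beside 0.0391% of all genes, with 5 estimates above 0 and 5 below. Egr1 alone had an unadjusted p under 0.05, with 647, 749.7, 698 and 597 CPM in mac-TFEB and 522, 563, 531, 643 and 552 CPM in CX3CR1-Cre, a log2 fold change of 0.26 ± 0.13 (edgeR adjusted p = 1.00). The groups overlapped in 1 CX3CR1-Cre library of 643 CPM. The difference of the TFEB effect between the fractions was tested directly and 0 of the 10 genes passed in edgeR without a block (0 at an unadjusted p under 0.05, and 0 by DESeq2 and limma-voom), as did 0% of all genes, with 505 at an unadjusted p under 0.05. With the label as a block 0 of the 10 passed too, and 4 of them had an unadjusted p under 0.05: Ier2 (difference in log2 fold change 1.00 ± 0.26, edgeR adjusted p = 0.223), Junb (0.80 ± 0.23, 0.309), Zfp36 (0.31 ± 0.10, 0.415) and Klf6 (0.19 ± 0.08, 0.542).

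The second comparison sets the cassette against wild type in cells labelled Cre-neg, where, as given above, the TFEB-TG libraries held more Tfeb message than the TFEB-wt libraries and so are not a group at the wild-type level of Tfeb. Between TFEB-TG and TFEB-wt Cre-neg cells 0 of the 10 passed in CCR2neg cells (0.406% of all genes) and 0 in CCR2pos cells (0.0313%), and 0 in each by DESeq2 and limma-voom. Ier2 in CCR2neg cells was the only 1 with an unadjusted p under 0.05 in either fraction. It had 51.5, 24.1, 14.9 and 20.7 CPM in TFEB-TG Cre-neg, against 56.8, 37.2, 97.4, 57.2 and 44.2 CPM in TFEB-wt Cre-neg. The log2 fold change was -1.08 ± 0.36 (edgeR adjusted p = 0.149), about as large as that between the groups with Cre. Ier2 passed without TFEB-TG CCR2neg Cre-neg library 1, the library that stood apart (-1.55, edgeR adjusted p = 0.0190), as did Junb (-1.24, 0.0387). That was the only 1 of the 9 fits leaving out 1 library in which Ier2 passed (-1.55 to -0.82, edgeR adjusted p up to 0.423). Mean library GC was 48.9 to 49.5% in those TFEB-TG libraries and 49.3 to 49.6% in the TFEB-wt libraries, and with it as a covariate the log2 fold change was -0.38 ± 0.19 (edgeR adjusted p = 0.470). The difference between the TFEB comparison and the cassette comparison was passed by 0 of the 10 genes in CCR2neg and 0 in CCR2pos cells, and by 0% of all genes in each, with none of the 10 at an unadjusted p under 0.05 and none called by DESeq2 or limma-voom. Over all genes, 496 in CCR2neg and 145 in CCR2pos cells had an unadjusted p under 0.05, and DESeq2 called 2 in CCR2neg cells. With the label as a block 32 genes (0.25%) passed in CCR2neg and 0 in CCR2pos cells, and with the label as a random effect 3 and 0, with 0 of the 10 in each. In the blocked fit Klf6 had an unadjusted p under 0.05 in both fractions, with a difference in log2 fold change of -0.23 ± 0.08 in CCR2neg and -0.19 ± 0.08 in CCR2pos cells (edgeR adjusted p = 0.441 and 1.00).

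Between the CCR2 fractions Zfp36 passed the test in both Cre-neg comparisons, with more in CCR2pos cells. In TFEB-TG Cre-neg cells it had 3569.5, 4276, 3971 and 3953 CPM in CCR2pos, against 2086, 2822, 2393 and 2598 CPM in CCR2neg. The groups did not overlap, and the log2 fold change of 0.67 ± 0.12 passed the test (edgeR adjusted p = 0.000621), where 3.26% of all genes passed. In TFEB-wt Cre-neg cells it had 3572, 3930.1, 3927, 3807 and 3131 CPM in CCR2pos, against 3333, 2452, 2866, 2577 and 2516 CPM in CCR2neg. These groups overlapped through CCR2pos library 5 and CCR2neg library 1, and the log2 fold change of 0.42 ± 0.10 passed (edgeR adjusted p = 0.0240), where 2.35% of all genes passed.

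In mac-TFEB cells Zfp36 had 3422, 4314, 3692 and 4401 CPM in CCR2pos, against 2653, 3459, 2627 and 2751 CPM in CCR2neg, with a log2 fold change of 0.46 ± 0.12 that missed the threshold (edgeR adjusted p = 0.0649). In CX3CR1-Cre cells, where it did not pass, its mean was 3843 ± 432 CPM for the CCR2pos libraries and 3447 ± 346 CPM for the CCR2neg libraries (SD, n = 5 each). Taken label by label, the CCR2pos library was higher than the CCR2neg library of the same label and Cre status in 18 of 18 pairs. Ier3 was likewise higher in CCR2pos in 18 of 18 pairs. These pairs rest on 9 labels, each counted once per Cre status, and are not independent. How many of all genes reach such a tally was not computed. In mac-TFEB cells Ier3 had 1953, 1983, 2371 and 2427 CPM in CCR2pos, against 1545, 1665, 1457 and 1631 CPM in CCR2neg, and these groups did not overlap. The log2 fold change was 0.47 ± 0.11 (edgeR adjusted p = 0.0358), where 0.539% of all genes passed. In CX3CR1-Cre cells, with 2318, 2066, 1893, 2532 and 2079 CPM in CCR2pos against 2082, 1656, 1719, 1901 and 1619 CPM in CCR2neg, the log2 fold change of 0.28 ± 0.10 did not pass (edgeR adjusted p = 0.223), and 0 of the 10 genes did, where 0.797% of all genes passed.

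Within a genotype the label paired the libraries, and with the label as a block more of the 10 genes passed between fractions, all of them higher in CCR2pos. In mac-TFEB cells 4 passed (3.76% of all genes): Zfp36 (log2 fold change 0.46 ± 0.08, edgeR adjusted p = 0.000331), Ier3 (0.46 ± 0.08, 0.000611), Junb (0.78 ± 0.17, 0.00580) and Ier2 (0.86 ± 0.20, 0.00979). In CX3CR1-Cre cells Ier3 passed (0.27 ± 0.07, edgeR adjusted p = 0.0224), where 4.31% of all genes passed. In TFEB-TG Cre-neg cells 3 passed (9.6% of all genes): Zfp36 (0.68 ± 0.08, 7.06e-07), Ier2 (1.11 ± 0.20, 0.00041) and Junb (0.85 ± 0.17, 0.0013). In TFEB-wt Cre-neg cells Zfp36 passed (0.42 ± 0.07, edgeR adjusted p = 0.00014), where 6.31% of all genes passed.

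With library GC in the fit, Zfp36 and Ier3 passed and Junb and Ier2 did not. In mac-TFEB cells Junb had 241, 258, 128 and 203 CPM in CCR2pos against 208, 133, 81.0 and 87.4 CPM in CCR2neg, while mean library GC was 49.1 to 49.7% in CCR2pos and 49.1 to 49.6% in CCR2neg. With the label as a block and library GC as a covariate, the log2 fold change in mac-TFEB cells was 0.42 ± 0.13 for Junb (edgeR adjusted p = 0.0929) and 0.37 ± 0.14 for Ier2 (0.184), and in TFEB-TG Cre-neg cells 0.29 ± 0.16 for Junb (0.303) and 0.39 ± 0.17 for Ier2 (0.157). In the same fit Zfp36 passed in mac-TFEB (0.41 ± 0.08, edgeR adjusted p = 0.00286), in TFEB-TG Cre-neg (0.60 ± 0.10, 0.000280) and in TFEB-wt Cre-neg cells (0.39 ± 0.07, 0.000285). Ier3 passed in mac-TFEB (0.45 ± 0.09, 0.00254) and in CX3CR1-Cre cells (0.27 ± 0.07, 0.0149). That fit, chosen after the data were seen, also called Klf6 lower in CCR2pos CX3CR1-Cre cells (-0.16 ± 0.05, edgeR adjusted p = 0.0458) and Dusp1 lower in CCR2pos TFEB-TG Cre-neg cells (-0.54 ± 0.15, adjusted p = 0.0253), neither of which passed without GC in the fit.

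**Figure D5:**
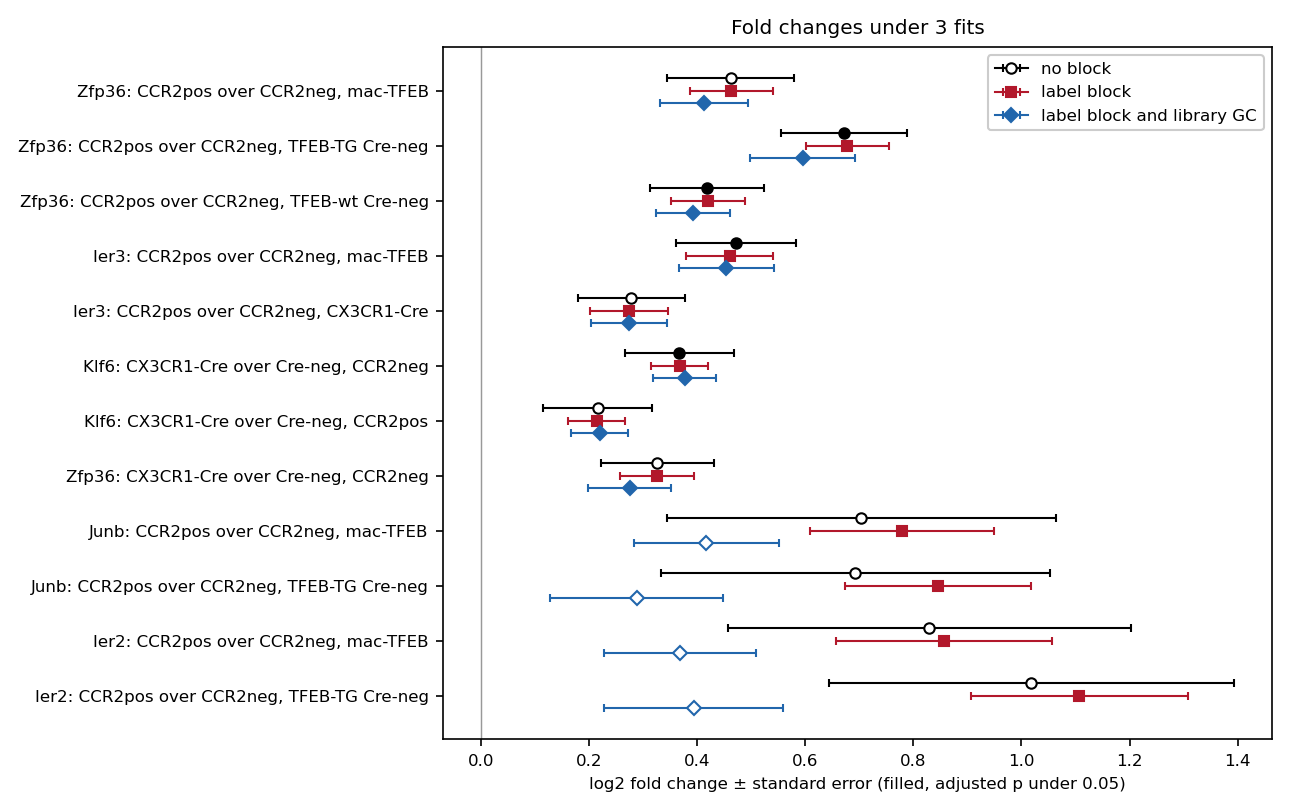
Log2 fold change with its standard error for the 12 pairs of a gene and a comparison that passed with the label as a block, in edgeR fits without a block (black), with the label as a block (red) and with the block and library GC as a covariate (blue). Filled symbols have an adjusted p under 0.05. The Zfp36, Ier3 and Klf6 values differ little between the 3 fits, whereas the blue Junb and Ier2 values are closer to 0 and open.

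The last comparison sets cells with Cre against Cre-neg cells of the same genotype and fraction. In TFEB-wt CCR2neg cells Klf6 had 2456, 2333, 2788, 2391 and 2284 CPM in CX3CR1-Cre, against 2086, 1738, 2037, 1788 and 1851 CPM in Cre-neg. The groups did not overlap, and Klf6 rose by a log2 fold change of 0.37 ± 0.10 (edgeR adjusted p = 0.0409), where 2.6% of all genes passed. With the label as a block 2 of the 10 genes passed (7.54% of all genes): Klf6 (edgeR adjusted p = 2.06e-05) and Zfp36 (0.33 ± 0.07, 0.00218), which had 3847, 3111, 3648, 3568 and 3059 CPM in CX3CR1-Cre and 3333, 2452, 2866, 2577 and 2516 CPM in Cre-neg. Both also passed with library GC added to the block (Klf6 0.38 ± 0.06, edgeR adjusted p = 0.000128, and Zfp36 0.28 ± 0.08, 0.0246). In TFEB-wt CCR2pos cells 0 of the 10 passed (0.00782% of all genes; 1 of the 10, Klf6, at an unadjusted p under 0.05, and 0 by DESeq2 and limma-voom), and with the block Klf6 did, at 0.21 ± 0.05 (edgeR adjusted p = 0.0380, with 1.05% of all genes passing). The difference of the Cre effect between fractions in TFEB-wt was passed by 0 of the 10 genes in edgeR without a block (0 at an unadjusted p under 0.05) and by 0% of all, with 524 at an unadjusted p under 0.05. With the block 0 of the 10 passed, with Zfp36 (-0.26 ± 0.10, edgeR adjusted p = 0.395) and Klf6 (-0.15 ± 0.07, 0.583) at an unadjusted p under 0.05.

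Klf6 was higher in the CX3CR1-Cre than in the Cre-neg library of the same label in 10 of 10 pairs, and higher in the mac-TFEB than in the TFEB-TG Cre-neg library in 7 of 8 pairs. Atf3 had the same tallies, and Fos, Junb and Zfp36 were higher in 9 of 10 and 6 of 8 pairs. Dusp1 was higher in 8 of 10 and 4 of 8 pairs, and Egr1 and Ier2 in 6 of 10 and 5 of 8. Jun was higher in 5 of 10 and 3 of 8 pairs, and Ier3 in 3 of 10 and 1 of 8. Each label gave a pair in each CCR2 fraction, so the pairs are not independent. The share of all genes with such tallies was not computed. Fos passed in none of the 12 comparisons, with log2 fold changes between -0.02 and 0.14 (standard error up to 0.12, edgeR adjusted p of 0.777 or more). In TFEB-TG no gene of the 10 passed between mac-TFEB and Cre-neg cells. The share of all genes that passed there was 0.156% in CCR2neg and 0.0156% in CCR2pos cells, and with the block 2.35% and 0.203%, again with 0 of the 10. DESeq2 and limma-voom also called 0, and 2 of the 10 in CCR2neg and 0 in CCR2pos cells had an unadjusted p under 0.05. In CCR2neg cells Atf3 had 1002, 1198, 1017 and 1104 CPM in mac-TFEB and 816, 855, 991 and 981 CPM in TFEB-TG Cre-neg. These groups did not overlap, but the log2 fold change of 0.25 ± 0.10 did not pass (edgeR adjusted p = 0.461). Ier3 had 1545, 1665, 1457 and 1631 CPM in mac-TFEB and 1651, 1705, 2231 and 2102 CPM in TFEB-TG Cre-neg, a log2 fold change of -0.29 ± 0.11 (edgeR adjusted p = 0.422).

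The calls of Zfp36, Ier3 and Klf6 differed in how many libraries they rested on. Zfp36 in TFEB-TG Cre-neg cells passed in all 8 fits that left out 1 library (log2 fold change 0.59 to 0.75, edgeR adjusted p up to 0.00698). Without CCR2neg library 1, which stood apart, Junb (1.25, edgeR adjusted p = 0.0329) and Ier2 (1.49, 0.0201) passed there too, each in that 1 of the 8 fits alone (edgeR adjusted p up to 0.613 and 0.353). In TFEB-wt Cre-neg cells Zfp36 passed in 4 of 10 such fits and was lost without CCR2pos library 2, 3 or 4 or CCR2neg library 2, 4 or 5 (0.38 to 0.49, edgeR adjusted p up to 0.0834). Ier3 in mac-TFEB cells passed in 2 of 8 and was lost without CCR2pos library 3 or 4 or any of the 4 CCR2neg libraries (0.42 to 0.52, edgeR adjusted p up to 0.177). Klf6 in TFEB-wt CCR2neg cells passed in 2 of 10 and was lost without CX3CR1-Cre library 1, 3, 4 or 5 or Cre-neg library 2, 3, 4 or 5 (0.30 to 0.39, edgeR adjusted p up to 0.174). Fitted to the libraries of the compared groups alone, none of the 4 calls passed, at nearly the same fold changes (edgeR adjusted p = 0.0542 and 0.0874 for Zfp36, 0.107 for Ier3 and 0.0545 for Klf6).

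Other genes of the immediate early programme were taken from 6 lists, of which 137 of 139 genes were measured. The lists, too, were chosen with earlier results of these data known. Between fractions they were called higher in CCR2pos only: 2 in mac-TFEB, 4 in CX3CR1-Cre, 23 in TFEB-TG Cre-neg and 11 in TFEB-wt Cre-neg cells, with 0 called lower in each. Calls over all genes leaned the same way, with 50 higher and 19 lower in mac-TFEB (0.539%), 76 and 26 in CX3CR1-Cre (0.797%), 316 and 101 in TFEB-TG Cre-neg (3.26%) and 196 and 105 in TFEB-wt Cre-neg cells (2.35%), and the lists were not tested against them. Crem, which encodes the cyclic AMP repressor ICER among its products, was called in all 4, with means of 388 CPM in CCR2pos and 250.1 CPM in CCR2neg mac-TFEB cells (log2 fold change 0.63 ± 0.12, edgeR adjusted p = 0.00580) and 513 and 296 CPM in CX3CR1-Cre cells (0.79 ± 0.11, 6.02e-05). Osm, the cytokine oncostatin M, was also called in all 4, with 166 CPM in CCR2pos and 87.0 CPM in CCR2neg TFEB-TG Cre-neg cells (0.93 ± 0.12, edgeR adjusted p = 9.75e-06). In the list of AP-1 and ATF partners 6 of 17 were called higher in TFEB-TG Cre-neg cells. Among them Fosb, the AP-1 subunit nearest in kind to Fos, had means of 1186 CPM in CCR2pos and 672 CPM in CCR2neg (0.82 ± 0.18, 0.00649), and Mafk, a small MAF protein, 105 and 44.0 CPM (1.25 ± 0.22, 0.000694). The median log2 fold change of that list was 0.41 in that comparison, beside -0.03 for all genes.

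Of the list of feedback inhibitors and mRNA decay factors 5 of 34 were called higher in CCR2pos TFEB-TG Cre-neg cells and 2 of 34 in TFEB-wt Cre-neg cells. They included Zc3h12a, the RNase regnase-1, with 22.3 CPM in CCR2pos and 11.8 CPM in CCR2neg TFEB-TG Cre-neg cells (log2 fold change 0.92 ± 0.22, edgeR adjusted p = 0.0155), Nfkbia, the inhibitor of NF-kB, with 1236 and 839 CPM (0.56 ± 0.14, 0.0219), and Pim1, a kinase, called in both genotypes. Among the induced transcription factors Rel, an NF-kB subunit, had 82.2 CPM in CCR2pos and 41.0 CPM in CCR2neg TFEB-TG Cre-neg cells (1.00 ± 0.15, edgeR adjusted p = 4.16e-05). Of the kinases and factors upstream of the immediate early genes 2 of 24 measured were called higher in CCR2pos cells of each Cre-neg genotype, Map2k3 and Stat3. Of the heat shock and chaperone genes, which are also induced by dissociation, 2 of 14 measured were called, in TFEB-TG Cre-neg cells alone: Hspa5 (0.54 ± 0.13, 0.0129) and Dnajb1 (0.62 ± 0.18, 0.0492).

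Between mac-TFEB and CX3CR1-Cre CCR2neg cells 1 of the 137 genes was called higher and 4 lower, beside 118 higher and 58 lower over all genes (1.38%). Sgk1, a kinase induced by serum and glucocorticoids, was higher, with 613 CPM in mac-TFEB and 411 CPM in CX3CR1-Cre (log2 fold change 0.58 ± 0.12, edgeR adjusted p = 0.00675). Socs3, an inhibitor of cytokine signalling, had 144 and 256 CPM (-0.83 ± 0.18, 0.00844), Zfp36l1, a relative of Zfp36 that also promotes mRNA decay, 64.2 and 121 CPM (-0.92 ± 0.23, 0.0378), Batf3, a dendritic cell AP-1 factor, 7.52 and 15.9 CPM (-1.08 ± 0.19, 0.0015), and Icam1, an adhesion molecule, 493 and 737 CPM (-0.58 ± 0.09, 0.000429). Icam1 was also the 1 gene of the 137 called between TFEB-TG and TFEB-wt Cre-neg CCR2neg cells, where 5 genes of all were called higher and 47 lower (0.406%), with 373 and 531 CPM (-0.51 ± 0.09, edgeR adjusted p = 0.00954). Between CX3CR1-Cre and Cre-neg TFEB-wt CCR2neg cells 8 were called higher and 6 lower, beside 124 higher and 209 lower over all genes (2.6%). Those higher included Rel (0.58 ± 0.13, 0.00929), Cd83 (0.72 ± 0.15, 0.00656) and Batf3 (0.86 ± 0.18, 0.00547). Those lower included Bhlhe40 (-1.06 ± 0.25, 0.0139), Nr4a2 (-0.73 ± 0.20, 0.0386), Ptgs2 (-0.96 ± 0.25, 0.0246) and Clec4e (-1.46 ± 0.39, 0.0354), the last a receptor for mycobacterial glycolipid. In the other comparisons 0 of the 137 genes were called. The TFEB comparison and the Cre comparison share the 5 CX3CR1-Cre CCR2neg libraries.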

How the data were processed

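RNA of 36 libraries was sequenced as single reads of cDNA made without strand information, per the labels' protocols. The deposited counts are whole reads per gene made by the authors with HTSeq; GRCm38, edgeR, DESeq, Bowtie2, TopHat and TopHat2 2.0.10 are further named, without parameters, in the submitters' processing notes. The table is named as filtered, by a rule not given in the sources used here. A gene lost to that filter has no value.

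From these counts, edgeR 4.0.16 (R 4.3.3) gave TMM-normalised CPM and quasi-likelihood tests with 8 group means, Benjamini-Hochberg adjustment over all 12795 genes and a threshold of 0.05. filterByExpr removed no gene. Standard errors were taken from the fold change and its F statistic. Deviations are from group means of log2(CPM + 1). Alternatives used limma 3.58.1 (voom), DESeq2 1.42.0 and the fits named in the closing section. The edgeR fits without a block and with the label as a block, limma-voom with quality weights and DESeq2 were tested on simulated data. That was done for the comparison of fractions in mac-TFEB cells alone, and the other fits were not tested so. The members and lists were chosen with earlier results of these data known. All 10 members were counted in every comparison, with fold changes printed for each that was called and for some that were not, and at most 4 called genes per list, by smallest p. Promoter letters are RefSeq's.

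Same-numbered libraries deviated together within a genotype (r of 0.38 to 0.60 between fractions in TFEB-TG and 0.16 to 0.58 in TFEB-wt, and of 0.41 to 0.67 and 0.20 to 0.50 between Cre states) but not between genotypes (-0.43 to 0.24), so the label served as a block within genotypes. Counts of 301 or more per member and library leave little counting error, and the spread between libraries sets the precision.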

Additional observations from a re-analysis of the deposited data

Results flagged for a closer look

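Dixon's test marked 6 of 80 sets of a gene in a group, and chance marks about 1 in 20. Library 3 of TFEB-wt CCR2neg CX3CR1-Cre was highest for 3 genes: Jun had 531 CPM there and 227 to 263 CPM in the other 4 libraries, Junb had 493 CPM against 179 to 229 CPM, and Dusp1 had 589 CPM against 313 to 361 CPM. Egr1 had 704 CPM in library 4 of TFEB-wt CCR2pos Cre-neg, against 507 to 544 CPM in the others. Zfp36 was high in library 2 of TFEB-TG CCR2neg mac-TFEB, with 3459 CPM against 2627 to 2751 CPM, and low in library 5 of TFEB-wt CCR2pos CX3CR1-Cre, with 3089.8 CPM against 3873 to 4122 CPM.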

How the results depend on the processing

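Of 22 reported fold changes, all 22 kept their direction and side of the threshold with DESeq2 size factors, with no filter and with at least 1 CPM in 9 libraries. None of these 22 changed direction under any alternative, but of the other 138 values of the 10 genes 74 did under at least 1, none of them called after the change, and counts of estimates above or below 0 rest on those. With 1 library left out, 165 of 193 values stayed on their side, 20 lost the threshold and 8 passed it.

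Between mac-TFEB and CX3CR1-Cre CCR2neg cells the number of the 10 genes called was 0, but 2 by limma-voom and 2 with the label as a random effect, and 0 to 2 with a library left out. The cassette comparison in CCR2neg cells gave 0 to 2 with a library left out. Between fractions of mac-TFEB cells it was 1, but 2 by DESeq2, 3 by limma-voom, 0 in a fit to the compared libraries alone, 4 with the replicate block, 2 with a random effect and 2 with the block and library GC, and 0 to 2 with a library left out. For CX3CR1-Cre cells it was 0, but 1 with the replicate block, 1 with a random effect and 2 with block and GC. For TFEB-TG Cre-neg cells it was 1, but 2 by limma-voom, 0 in the fit alone, 3 with the replicate block, 3 with a random effect and 2 with block and GC, and 1 to 3 with a library left out. For TFEB-wt Cre-neg cells it was 1, but 0 in the fit alone and 0 without the 4 libraries of TFEB-wt 3 (Zfp36 log2 fold change 0.41, edgeR adjusted p = 0.0963), and 0 to 1 with a library left out. Between CX3CR1-Cre and Cre-neg it was 1 in CCR2neg cells, but 0 in the fit alone, 2 with the replicate block, 2 with a random effect, 0 without TFEB-wt 3 (Klf6 0.34, 0.157), 2 with block and GC, and 0 to 2 with a library left out; in CCR2pos cells it was 0, but 1 with the replicate block and 1 with block and GC. The fit alone has fewer libraries to estimate the spread, and for the other changes the cause was not tested. The replicate block changed no other call. The fits with library GC and those without TFEB-wt 3 were chosen after the data were seen.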
